A study of Mus musculus with 12 samples.

Results

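The response of macrophages to interleukin-4 (IL-4) was compared between wild-type (WT) and Keap1-deficient cells, as the difference between the genotypes in the change that IL-4 made. Bone marrow-derived macrophages (BMDMs) were grown for 7 days with M-CSF from C57BL/6 mice aged 8 weeks. WT BMDMs were set against BMDMs from Keap1 flox/flox::LysM-Cre mice (KpCKO; labelled Keap1 CKO), in which Cre is expressed from the LysM locus of myeloid cells. Both were left untreated (Con) or stimulated with IL-4 at 10 ng/ml for 6 hours (M2). Each of the 4 groups held 2 arrays, 1 from each of 2 cultures, and each culture came from 1 WT and 1 KpCKO mouse, males in culture 1 and females in culture 2. The WT mice are labelled only as WT, and culture and sex cannot be told apart. Of the 12 arrays of the series, these 8 were used, and the 4 arrays of cells given LPS and interferon-γ (M1) entered only the estimate of the spread. A gene was kept when a probe for it was well above background on all 8 arrays, which held for 19184 of 32301 genes or transcripts (25604 of 41174 probes). Probes kept had a median signal of 540 intensity units, against 18.0 for the 962 probes that were well above background on 7 of the 8 arrays.

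IL-4 acts through the IL-4 receptor and the transcription factor STAT6, and drives macrophages towards the alternatively activated, or M2, state, with induction of arginase 1, lectin receptors and chemokines that attract eosinophils and T cells. Keap1 is the adaptor that keeps the transcription factor Nrf2 at a low level by directing its degradation. Without Keap1, Nrf2 accumulates and its targets, genes of glutathione synthesis and detoxification, are switched on before any stimulus.

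Levels are given as log2 signal relative to the 75th percentile of the array, and a response is the M2 level less the Con level of the same genotype and culture. Keap1 stood at 3.26 and 3.16 in WT Con, 3.07 and 2.85 in WT M2, 1.79 and 1.71 in KpCKO Con, and 1.36 and 0.94 in KpCKO M2 (cultures 1 and 2). Nqo1, an Nrf2 target, was 3.23 ± 0.103 (SE) higher in KpCKO Con and 3.52 ± 0.103 higher in KpCKO M2 on the log2 scale (limma, adjusted p = 2.55e-05 and 2.75e-05). Both genes separated the genotypes without overlap in each condition. All 11 macrophage markers with a probe were well above background on all 8 arrays, and their summed signal was between 679 and 813 times the 75th percentile in WT and between 529 and 576 times it in KpCKO. The summed signal of the 14 neutrophil markers with a probe was between 15.9 and 18.6 in culture 1 and between 6.34 and 9.77 in culture 2, and Elane was above background on none of the 8 arrays. The 75th percentile was between 966 and 1166 intensity units. Con and M2 arrays lay on different slides that were scanned apart, so a response to IL-4 cannot be told apart from the slide, whereas the genotypes were hybridised side by side on each slide.

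IL-4 changed the level of many genes in both genotypes. In WT, 3802 genes (19.8% of 19184) passed limma's test at an adjusted p of 0.05, 1985 of them higher (10.3%) and 1817 lower (9.47%) in M2. In KpCKO, 2405 genes (12.5%) passed, 1346 higher (7.02%) and 1059 lower (5.52%). Counted by size, 611 genes in WT (3.18%) and 465 in KpCKO (2.42%) were higher by more than 2-fold in each culture, and 406 of these were common to both genotypes. Of the genes lower by more than 2-fold in each culture, there were 449 in WT (2.34%) and 219 in KpCKO (1.14%), with 179 common to both. These counts do not test the difference between the genotypes. Their order also turned with any 1 WT array left out, and was kept with any 1 KpCKO array left out. Each of these fits leaves a group of 1 array in 1 genotype while the other stays whole. They therefore do not show how stable the order is. With the normexp background correction 2260 genes passed in WT and 1044 in KpCKO.

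The slope of the response was lower in KpCKO in each culture. To keep the choice of genes apart from the values, genes whose response averaged over both genotypes was above 2-fold in 1 culture were taken, and the response of each genotype in the other culture was regressed on that average. In culture 1 the slope was 0.964 in WT and 0.761 in KpCKO over 1341 genes, a ratio of 0.790. In culture 2 it was 1.02 in WT and 0.908 in KpCKO over 1211 genes, a ratio of 0.888. The mean ratio was 0.839 ± 0.0696 (SD, n = 2 cultures), and with 2 cultures no test of it was made.

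**Figure D1:**
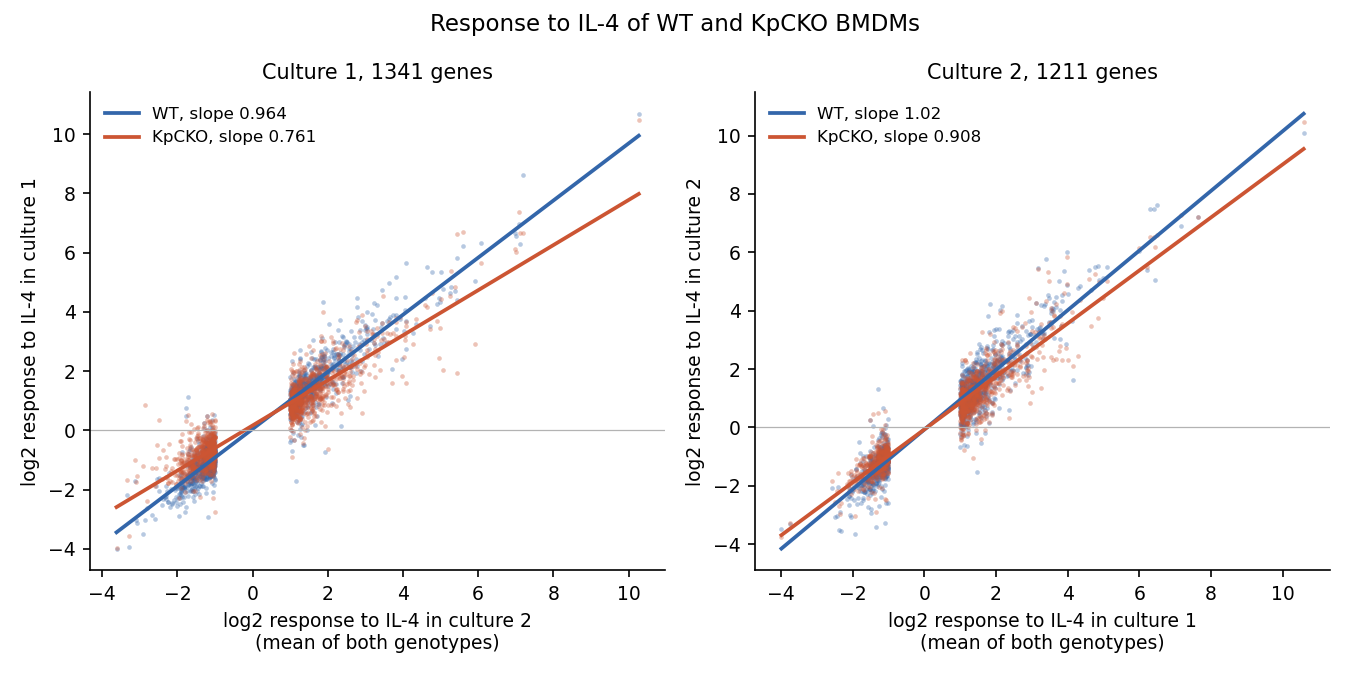
Log2 response to IL-4 of each gene in one culture against its response in the other culture averaged over both genotypes, for genes above 2-fold in that other culture, with least-squares lines for WT (blue) and KpCKO (red). The KpCKO line is flatter in both panels, with slopes of 0.761 against 0.964 in culture 1 and 0.908 against 1.02 in culture 2.

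The smaller response was seen among induced and among reduced genes. Of the 723 genes induced in culture 2, 70.4% had a lower response in KpCKO than in WT in culture 1, with a median difference of −0.24. Of the 784 genes induced in culture 1, 69.6% had a lower response in KpCKO in culture 2, with a median difference of −0.15. Reduced genes were reduced less in KpCKO for 87.5% of 618 genes in culture 1 and 70.7% of 427 genes in culture 2, with median differences of 0.39 and 0.17. Of all 19184 genes, 39.2% had a lower response in KpCKO in culture 1 and 54.9% in culture 2, so the cultures had unlike backgrounds. The median difference between the genotypes grew with the size of the response. It was −0.18 and −0.14 for genes induced between 1 and 2 on the log2 scale, and −0.56 and −0.30 for the 70 and 67 genes induced by more than 3. Over all 19184 genes it was 0.06 in culture 1 and −0.02 in culture 2.

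Genes chosen for a gap of more than 2-fold between the genotypes in Con had a smaller median gap in M2. Genes were grouped by the gap in Con in 1 culture and measured in the other, a grouping that was added after the values had been seen. Genes picked for a large gap in Con tend to show a smaller one in M2, and no grouping by the gap in M2 was made. The medians therefore do not show that IL-4 narrowed the gaps. The 462 genes more than 2-fold higher in KpCKO Con in culture 2 had, in culture 1, a median gap of 0.98 in Con and 0.85 in M2. The 482 genes more than 2-fold higher in KpCKO Con in culture 1 had, in culture 2, a median gap of 0.94 in Con and 0.75 in M2. Genes more than 2-fold lower in KpCKO Con went the other way, from −1.22 to −0.85 in culture 1 (269 genes) and from −0.75 to −0.55 in culture 2 (466 genes). Smaller gaps did not all do so. The 1019 genes with a gap between 0.5 and 1 on the log2 scale in culture 2 went from 0.35 in Con to 0.43 in M2 in culture 1.

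No single gene passed the test of the difference in response. Of 19184 genes, 0 (0%) had an adjusted p below 0.05 in limma, and the lowest adjusted p was 0.99988. At an unadjusted p of 0.05 there were 284 genes (1.48%), 129 with a higher (0.672%) and 155 with a lower (0.808%) response in KpCKO. This share lies below the 0.05 that the threshold allows when no gene differs. With only the 8 Con and M2 arrays fitted, limma gave 605 genes at an unadjusted p of 0.05 and 0 after adjustment. The methods' t-test gave 917 genes at that level and 0 after adjustment. The median standard error of a difference in response was 0.221 on the log2 scale, so that for a gene of median precision the 95% confidence interval reached 0.52 to either side, a fold of 1.43. That error was pooled over the 6 groups, so the spread of the M1 arrays also sets the width of each interval. The genes below are therefore described by their size in each culture, and their unadjusted p-values are not calls.

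By size, 31 genes (0.162%) had a response lower by more than 2-fold in KpCKO in each culture, and 11 genes (0.0573%) had one higher by more than 2-fold. Past the same fold, 6 genes (0.0313%) had opposite directions in the cultures. The size rule holds no estimate of error, and genes with a wide spread between arrays can pass it, so no gene is called by it. In simulated data more genes without a planted difference passed it than the 31 and 11 genes found here. Across genes, the differences of the 2 cultures correlated at Pearson's r = 0.243 and Spearman's rho = 0.261. The cultures share no array, but genes are not independent replicates. In the 31 genes with the lower response, 27 had been induced by more than 2-fold in both WT cultures (3.18% of all genes were). Of them, 16 still were in KpCKO (2.42% of all genes). In the 11 with the higher response, 6 were reduced by more than 2-fold in both WT cultures and 0 in KpCKO (2.34% and 1.14% of all genes were). The size rule picks on these same responses, so the counts describe the genes and do not add to the difference. With the normexp correction, 31 genes again had the lower response, 16 of them the same (Egr2, Ptgir, Itgax, Ccl24 and Wdr86 among them, Mboat2, Cidea, Adra2b and Gata3 not), whereas 1 gene, Usp18, was left of the 11 with the higher response.

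**Figure D2:**
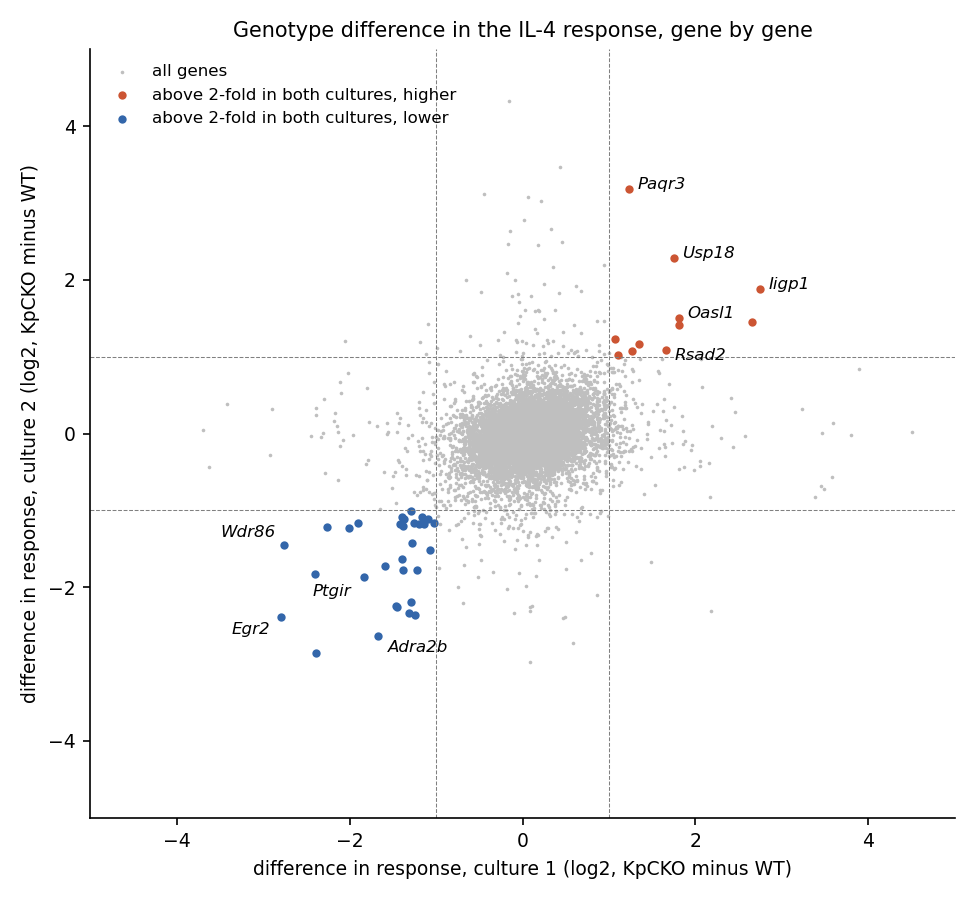
Difference in the log2 response to IL-4 (KpCKO minus WT) of 19184 genes in culture 1 (x axis) and culture 2 (y axis), with dashed lines at 2-fold. Blue points are the 31 genes lower and red points the 11 genes higher by more than 2-fold in both cultures, and 6 grey points lie beyond 2-fold with opposite signs.

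Among the genes with a lower response were those that KpCKO cells already expressed before IL-4 and those that reached a lower level after it. Of the 31 genes, 7 were higher in KpCKO Con by limma's test (1.62% of all genes were) and 2 lower, and in KpCKO M2 2 were higher and 9 lower (1.43% and 0.751% of all genes were). In either direction, 519 genes (2.71%) differed in Con and 419 (2.18%) in M2. These comparisons use the same arrays as the difference in response, so they describe where it arose and do not add to it. The first kind held Egr2, Ptgir, Mboat2 and Itgax and, outside the rule for names and chosen after their values were seen, Slc6a9, Matk and Acss2.

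Egr2, a zinc-finger transcription factor of the IL-4 response, had the largest mean difference of any of the 31 genes with a symbol. Its level was 0.37 and 1.11 in WT Con, 5.55 and 6.11 in WT M2, 3.85 and 3.60 in KpCKO Con, and 6.22 and 6.22 in KpCKO M2. The genotypes were far apart in Con and close in M2, where both KpCKO values were still above WT. Egr2 rose by 5.09 in WT and by 2.50 in KpCKO (SE 0.471, adjusted p = 0.00107 and 0.0185, limma), a difference of −2.59 ± 0.666 with a 95% confidence interval of −4.16 to −1.03.

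Ptgir encodes the prostacyclin receptor. Its level was −0.76 and −0.67 in WT Con, 2.15 and 2.71 in WT M2, 2.82 and 2.77 in KpCKO Con, and 3.90 and 4.28 in KpCKO M2. Untreated KpCKO cells thus stood where IL-4 brought WT cells, and IL-4 raised them further. The response was 8.86-fold in WT and 2.45-fold in KpCKO, and the difference of −1.85 ± 0.350 was alike in the cultures (−1.84 and −1.87). A dimmer Ptgir probe gave 0.11 and −0.12, so the probes of this gene disagree.

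Itgax, which encodes the integrin CD11c, stood at 0.35 and 0.49 in WT Con, 2.47 and 3.09 in WT M2, 3.88 and 2.93 in KpCKO Con, and 4.73 and 4.11 in KpCKO M2. All KpCKO Con values were above or within the range of WT M2. The difference in response was −1.28 in culture 1 and −1.42 in culture 2. Mboat2, a lysophospholipid acyltransferase, differed by −2.40 and −1.83, and a second probe by −2.18 and −1.65. It was 2.83 ± 0.516 higher in KpCKO Con (adjusted p = 0.0366, limma) and 0.72 higher in M2 (adjusted p = 0.588).

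Matk, a kinase that restrains Src family kinases, was 1.47 higher in KpCKO Con (adjusted p = 0.0218, limma) and 0.37 higher in M2 (adjusted p = 0.519). Its response differed by −1.09 and −1.11, while a second probe gave −0.28 and 0.21. The glycine transporter gene Slc6a9 differed by −1.37 and −1.12. Acss2, which makes acetyl-CoA from acetate in the cytosol, was the exception in kind. It was 3.46 ± 0.216 higher in KpCKO Con (adjusted p = 0.000657, limma), and IL-4 lowered it by 1.24 in KpCKO (adjusted p = 0.0144) with a response of −0.12 in WT.

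In other genes the genotypes did not differ in Con by the test and the KpCKO mean was lower in M2. Cidea, a protein of lipid droplets, stood at −5.99 and −6.01 in WT Con, −3.66 and −4.11 in WT M2, −6.37 and −6.24 in KpCKO Con, and −5.64 and −6.06 in KpCKO M2. It rose by 2.11 in WT (adjusted p = 0.0033, limma) and its response in KpCKO was 0.45 (adjusted p = 0.318). KpCKO M2 was lower than WT M2 by 1.96 ± 0.270 (adjusted p = 0.015). These are dim levels, near the low end of the range measured.

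Wdr86, a gene of the WD-repeat family, was at −6.46 and −6.34 in WT Con and −6.29 and −6.17 in KpCKO Con, where the genotypes were nearly level. With IL-4 it reached −1.68 and −0.56 in WT and −4.27 and −1.84 in KpCKO. Both genotypes responded, 38.9-fold in WT and 9.05-fold in KpCKO. The Con levels were dim, as for Cidea, so these folds are uncertain. In M2 the lowest WT value lay above the highest KpCKO value, but the KpCKO cultures were further apart than the genotypes in culture 2, and the gap in M2 did not pass the test (−1.94, adjusted p = 0.129, limma).

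Ccl24, the eosinophil chemokine eotaxin-2, was among the strongest responders, with 46.3-fold induction in WT and 15.6-fold in KpCKO. It stood at −2.11 and −1.70 in WT Con, 3.42 and 3.84 in WT M2, −3.54 and −1.16 in KpCKO Con, and 0.61 and 2.61 in KpCKO M2. KpCKO M2 values were below both WT M2 values, and the KpCKO Con values lay on either side of WT Con. The difference in response was −1.38 and −1.77 in the cultures, and −1.62 and −1.74 with a second probe. Its standard error was 0.816, and the 95% confidence interval of −3.49 to 0.34 included 0.

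Adra2b, an adrenergic receptor, rose in WT from −5.69 and −5.58 to −3.98 and −3.80 (adjusted p = 0.00924, limma). In KpCKO it stood at −5.37 and −4.40 in Con and −5.33 and −5.25 in M2, a response of −0.41 (adjusted p = 0.43). Gata3, a transcription factor of type 2 immunity, rose in both genotypes, by 5.18 in WT and 3.56 in KpCKO (adjusted p = 0.000743 and 0.00419), and differed by −2.01 and −1.23. In Con its KpCKO mean was 0.93 higher (adjusted p = 0.379). Most Con levels of Adra2b and Gata3 lay near the low end of the range measured, as for Cidea. Fgr, a Src family kinase, had the course of the first kind, with a KpCKO mean 1.91 higher in Con (adjusted p = 0.13) and 0.40 higher in M2 (adjusted p = 0.804). It differed by −1.39 and −1.63 with a 95% confidence interval of −3.25 to 0.23. Hapln4, a link protein of the extracellular matrix, differed by −2.26 and −1.21, but its WT response was 2.49 in culture 1 and 0.18 in culture 2, and it did not pass the test in either genotype.

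**Figure D3:**
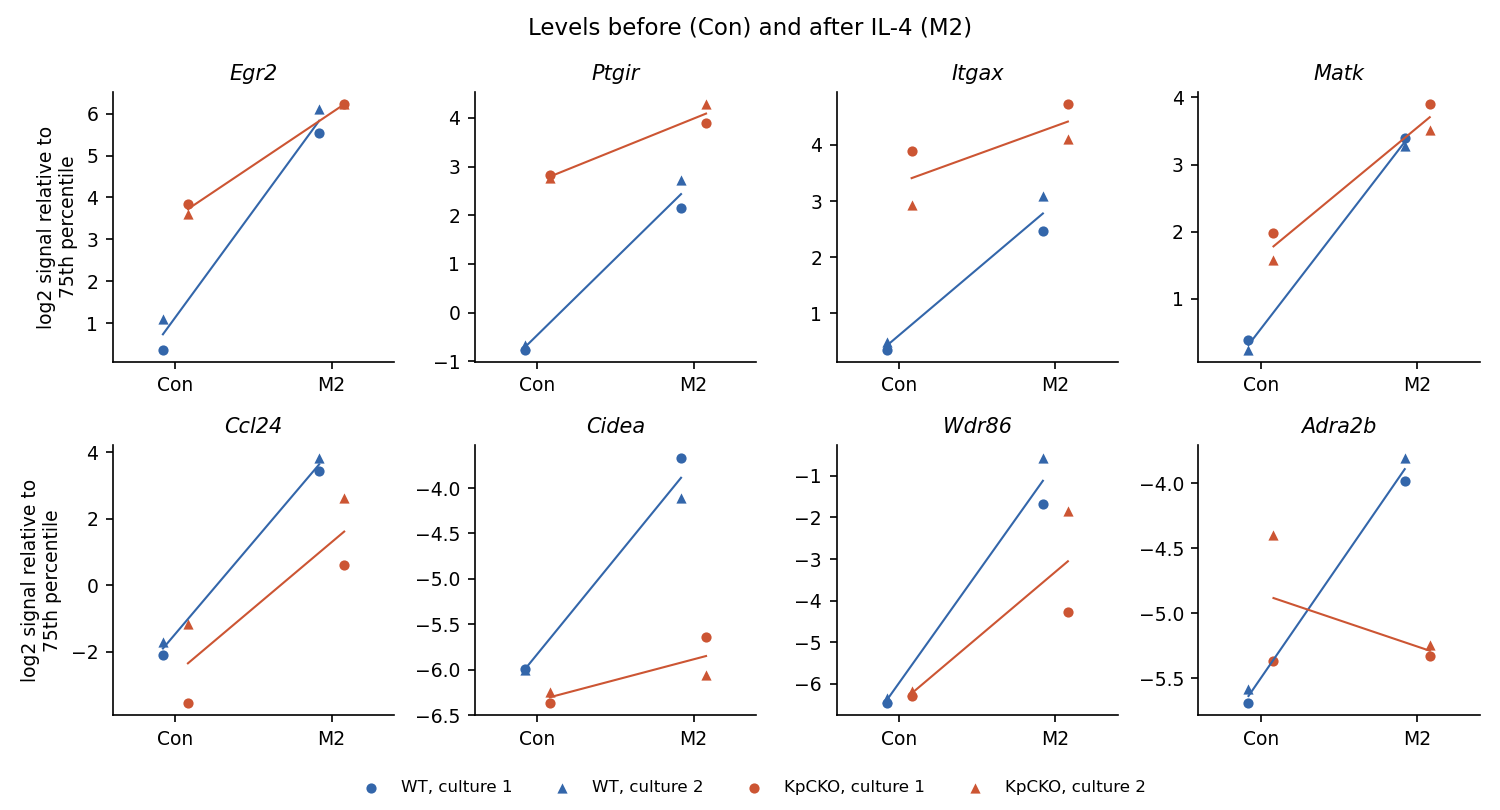
Levels (log2 signal relative to the array's 75th percentile) of 8 genes with a weaker IL-4 response in KpCKO, before (Con) and after IL-4 (M2), with circles for culture 1, triangles for culture 2 and lines through the means. In the upper row KpCKO (red) starts above WT (blue) in Con, and in the lower row the genotypes part in M2.

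Of the 31, the transcript with the largest mean difference had no symbol. ENSMUST00000106630 was at −4.18 and −4.68 in WT Con, 0.29 and −0.47 in WT M2, −4.95 and −5.09 in KpCKO Con, and −2.88 and −3.74 in KpCKO M2. Its response was 20.2-fold in WT and 3.27-fold in KpCKO, a difference of −2.62 ± 0.388. KpCKO M2 was lower than WT M2 by 3.21 (adjusted p = 0.00246, limma). All 9 genes that were lower in KpCKO M2 were induced in WT and had a lower mean in both KpCKO conditions. Cidea had the smallest WT response of them, 4.32-fold. The others were 6 transcripts without a symbol, the olfactory receptor gene Olfr187, and a single probe assigned to Med13, a subunit of the Mediator complex. Med13 rose by 4.65 in WT and 2.80 in KpCKO at that probe, but 3 other Med13 probes had responses between −0.32 and 0.01, so its assignment to the gene is uncertain. Olfr187 rose by 3.16 and 1.87.

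Of the 11 genes with a higher response in KpCKO, 5 were in the list of type I interferon genes (Usp18, Oasl1, Ifit2, Rsad2 and Cmpk2), of which 24 were among the 19184 genes measured. Outside that list, Iigp1 and Tgtp1 are interferon-inducible GTPases. Type I interferon acts on these genes through the interferon-stimulated response element of their promoters, and macrophages keep a low tonic level of this signal without infection. For 10 of the 11 the gap between the genotypes was larger in Con than in M2, and 1, Oasl1, was lower in KpCKO Con by limma's test (1.08% of all genes were).

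Usp18, the protease that removes ISG15 from proteins and dampens interferon signalling, stood at −0.26 and 0.17 in WT Con, 0.01 and 0.20 in WT M2, −3.01 and −1.55 in KpCKO Con, and −0.99 and 0.75 in KpCKO M2. The genotypes were apart in Con, and the KpCKO M2 values lay on either side of WT M2. Usp18 rose by 2.16 in KpCKO (adjusted p = 0.0358, limma) with a WT response of 0.15 (adjusted p = 0.87). The difference of 2.01 ± 0.720 had a 95% confidence interval of 0.32 to 3.71.

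Oasl1 and Rsad2 instead fell with IL-4 in WT and less in KpCKO. Oasl1, an oligoadenylate synthetase-like protein, stood at −2.48 and −1.90 in WT Con, −4.64 and −4.58 in WT M2, −5.59 and −3.94 in KpCKO Con, and −5.94 and −5.12 in KpCKO M2. It fell by 2.42 in WT (adjusted p = 0.0054, limma) and had a response of −0.77 in KpCKO (adjusted p = 0.208). Rsad2, the antiviral protein viperin, stood at −0.48 and 0.92 in WT Con, −2.81 and −2.01 in WT M2, −2.12 and −0.53 in KpCKO Con, and −2.79 and −2.37 in KpCKO M2. The M2 values of the genotypes overlapped. The difference in response was 1.66 and 1.09 in the cultures, and 2 further Rsad2 probes gave 1.81 and 0.87 and 1.87 and 1.17.

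Ifit2, an antiviral protein with tetratricopeptide repeats, differed by 1.81 and 1.41, and Cmpk2, a mitochondrial nucleotide kinase, by 1.26 and 1.07. Iigp1 was at −2.66 and −0.79 in WT Con and −6.39 and −2.78 in KpCKO Con, and in M2 at −2.56 and −2.34 in WT and −3.54 and −2.44 in KpCKO. Its cultures differed widely in Con, and its difference of 2.31 had a standard error of 1.17. Tgtp1 differed by 1.35 and 1.17, but a second probe gave −0.44 and 1.11. The rest were Paqr3, a receptor-like protein of the Golgi (1.24 and 3.19), Nxpe4 (1.07 and 1.22), the potassium channel gene Kcnj9 (1.10 and 1.03) and the transcript AK037784 (2.65 and 1.45). With the normexp correction the mean difference was 1.75 for Usp18, 1.13 for Rsad2, 0.21 for Paqr3, −0.11 for AK037784 and −0.14 for Kcnj9, the last 2 of which turned their sign.

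Most of the list of type I interferon genes had a higher response in KpCKO. Of 28 genes, 24 were measured, of which 22 had a higher response in KpCKO in both cultures and 0 a lower one, against 32.1% and 26.2% of all genes. Their median difference was 0.71 in culture 1 and 0.53 in culture 2. In WT 11 of the 24 fell and 0 rose by limma's test (9.47% and 10.3% of all genes did). In KpCKO 1 fell (Ifit3) and 2 rose, Usp18 among them (5.52% and 7.02% of all genes did). The median response of the list was −1.13 in WT and −0.49 in KpCKO. The median gap between the genotypes was −1.69 in Con and −0.69 in M2. In Con 5 genes were lower in KpCKO by the test (1.08% of all genes were), and in M2 0 were (0.751% of all genes). No member passed the test of the difference in response, and 2 had an unadjusted p below 0.05 (1.48% of all genes did). The list holds genes on which the largest differences were already seen, so its count is a description. Most genes reduced by more than 2-fold were also reduced less in KpCKO, 87.5% in culture 1 and 70.7% in culture 2. Their median differences were 0.39 and 0.17, so the list went the way of reduced genes at large, by a larger median.

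The promoters of part of these genes carry the letters of the interferon-stimulated response element, which are shown because most of the list shifted one way. In the windows from 250 bases before to 50 after each start (RefSeq, GRCm38.p6), the core of this element, GAAA and GAAA with 2 bases of any kind between them, was searched on both strands, counting overlapping matches. It was found in 11 of 22 windows of 18 list genes (50%), in 10 genes, against 3.44% of all 32851 windows, and in 2 of the 9 windows found for the 11 genes with the higher response, those of Rsad2 and Tgtp1. A stretch of 100 bases is given for both, and for Ifit1 and Isg15, with matches in capitals. A match describes the letters and not binding.
Rsad2, chr12:26456518-26456617, minus strand: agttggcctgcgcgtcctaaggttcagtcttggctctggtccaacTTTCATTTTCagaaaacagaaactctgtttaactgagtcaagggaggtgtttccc
Tgtp1, chr11:48992269-48992368, minus strand: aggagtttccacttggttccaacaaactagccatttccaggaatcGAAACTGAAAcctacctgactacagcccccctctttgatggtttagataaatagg
Ifit1, chr19:34640740-34640839, plus strand: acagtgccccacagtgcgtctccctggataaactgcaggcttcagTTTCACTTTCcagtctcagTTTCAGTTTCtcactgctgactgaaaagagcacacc
Isg15, chr4:156200842-156200941, minus strand: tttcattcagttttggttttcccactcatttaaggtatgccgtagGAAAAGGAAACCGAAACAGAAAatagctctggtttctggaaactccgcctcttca

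The motif lay in the antisense direction in Rsad2 and Ifit1, and in Isg15 the capitals hold overlapping matches. Ifit1 fell by 2.96 in WT (adjusted p = 0.00723, limma), and its KpCKO response was −1.77 (adjusted p = 0.0538). Isg15, the ubiquitin-like modifier, fell in WT (−1.01 and −1.39 in the cultures, adjusted p = 0.0489) and had a response of −0.47 in KpCKO (adjusted p = 0.423). For both genes the WT values lay above the KpCKO values without overlap, in Con and in M2.

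Most genes of cholesterol synthesis and uptake had a lower response in KpCKO, and part of them were higher there before IL-4. These genes are driven by SREBP2, which is released when sterols are low. All 24 genes of the list were measured, and 21 had a lower response in KpCKO in both cultures (26.2% of all genes did) and 1, Dhcr7, a higher one. The median response was 0.32 and 0.72 in WT and −0.06 and 0.39 in KpCKO (cultures 1 and 2), a median difference of −0.31 and −0.30. All genes induced between 0.5 and 1 on the log2 scale had a median difference of −0.09 and −0.07, in the same direction. In WT 7 genes rose by limma's test (10.3% of all genes did), and in KpCKO 1 did (7.02% of all genes), counts that do not test the difference. In Con 6 were higher in KpCKO (1.62% of all genes were), with a median gap of 0.74. In M2 1 was (1.43% of all genes), with a median gap of 0.42. No member passed the test of the difference.

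**Figure D4:**
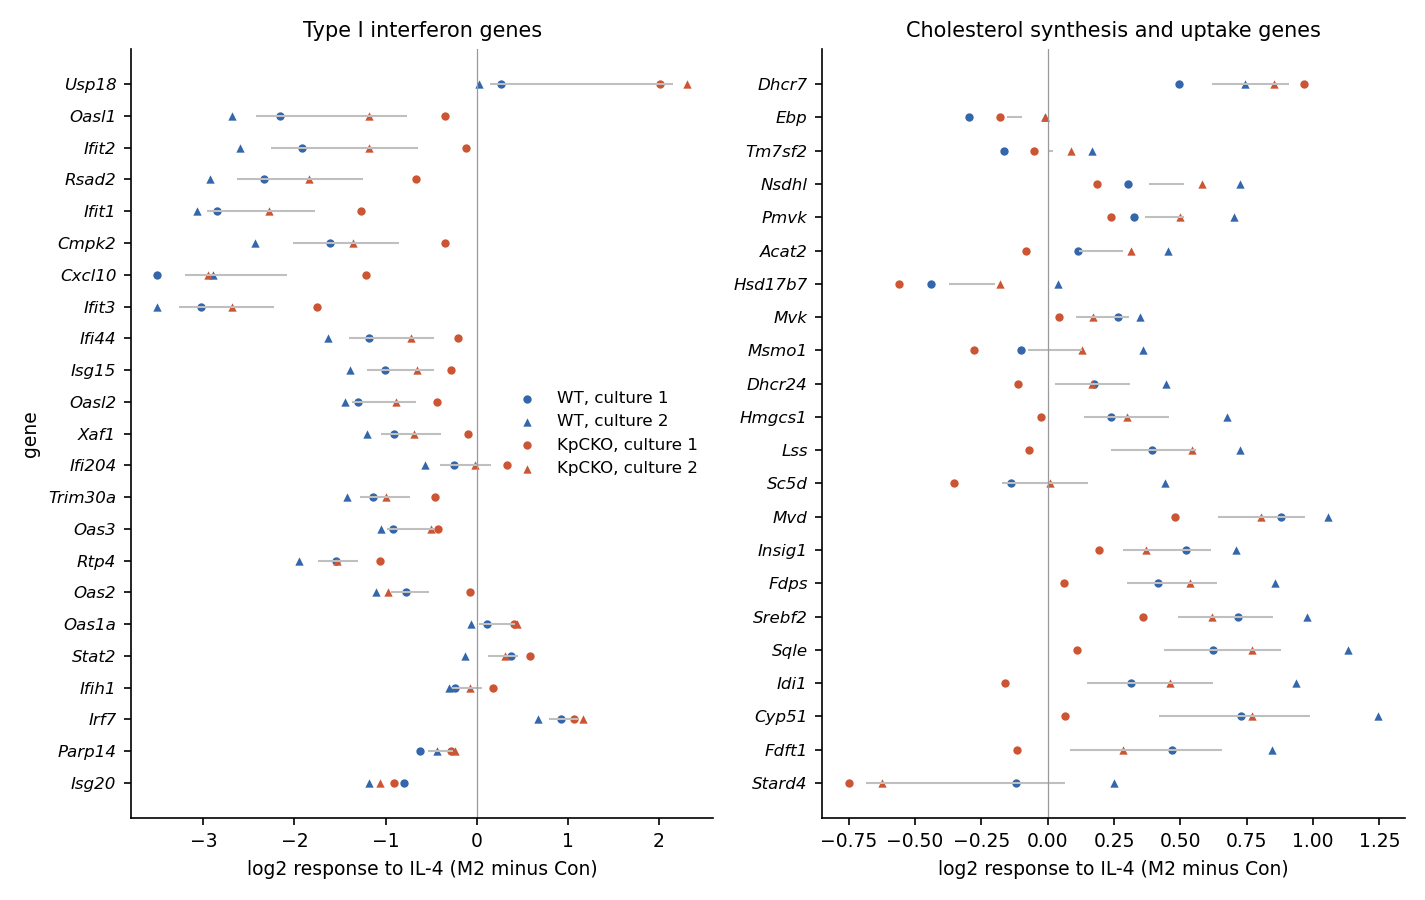
Log2 response to IL-4 of measured genes of 2 lists, type I interferon genes on the left and cholesterol genes on the right, sorted by the difference between the genotypes, with WT in blue, KpCKO in red, circles for culture 1 and triangles for culture 2 and a grey line between the means. KpCKO lies to the right of WT in both cultures for most of the interferon genes and to the left for most of the cholesterol genes.

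The differences were below 2-fold in each gene of this list. Cyp51, a demethylase of the pathway, had the largest WT response of the list. It stood at −0.35 and 0.14 in WT Con, 0.38 and 1.39 in WT M2, 0.95 and 0.84 in KpCKO Con, and 1.01 and 1.61 in KpCKO M2. Its KpCKO Con values lay above WT Con and within the range of WT M2. Cyp51 rose by 0.99 in WT (adjusted p = 0.0236, limma), and its KpCKO response was 0.42 (adjusted p = 0.272). Stard4, a sterol carrier, had the largest difference of the list (−0.63 and −0.87), and Dhcr7, the last enzyme of the pathway, differed by 0.47 and 0.11.

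The sterol response element core TCACNCCAC, searched on both strands, was found in 1 of 20 promoter windows of the list, against 1.24% of all windows. That was in Hmgcs1, the synthase at the head of the pathway, which was 1.37 higher in KpCKO Con and 1.05 higher in M2 (adjusted p = 0.00996 and 0.0307, limma). Its stretch is shown as the one match, with the core in capitals.
Hmgcs1, chr13:119690168-119690267, plus strand: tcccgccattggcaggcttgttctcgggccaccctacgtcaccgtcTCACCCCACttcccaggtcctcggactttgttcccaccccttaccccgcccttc

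Most genes of ribosome biogenesis and MYC targets rose with IL-4 in both genotypes. Of 23 measured, 18 rose in WT and 13 in KpCKO by limma's test (10.3% and 7.02% of all genes did), and 0 fell. The median response was 0.72 and 0.85 in WT and 0.40 and 0.82 in KpCKO, so the larger part of the gap came from culture 1. A lower response in KpCKO in both cultures was found for 20 of 23 (26.2% of all genes), with median differences of −0.29 and −0.16. Most genes induced by more than 2-fold also had a lower response in KpCKO, 70.4% in culture 1 and 69.6% in culture 2. Their median differences were −0.24 and −0.15, so the list went the way of induced genes at large. Srm, spermidine synthase, differed most (−0.53 and −0.22). Myc itself rose by 2.31 in WT and 2.25 in KpCKO (adjusted p = 0.000868 and 0.00138, limma) and differed by −0.29 and 0.17. No member differed between the genotypes in Con or M2 by the test.

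The genes best known for alternative activation were split. Of 34 in the list, 26 were measured. By limma's test 22 rose in WT and 21 in KpCKO (10.3% and 7.02% of all genes did), with 0 falling. The median response was 3.07 in WT and 2.62 in KpCKO. In both cultures 11 had a lower and 5 a higher response in KpCKO (26.2% and 32.1% of all genes did), and 4 were lower by more than 2-fold in each (0.162% of all genes were) (Egr2, Ccl24, Matk and Il27ra). Strong induction was measured in both genotypes for the members described next.

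Arg1, arginase 1, had the largest response of the list, from −6.68 and −5.69 in WT Con to 4.01 and 4.39 in WT M2, and from −6.80 and −6.53 in KpCKO Con to 3.69 and 3.94 in KpCKO M2. The Con levels lay near the low end of the range measured, as for Cidea, so the size of the rise is uncertain. The difference in response was −0.20 and 0.39, a mean of 0.09 with a 95% confidence interval of −0.93 to 1.11. Ccl17, a chemokine for T cells, rose by 3.97 in WT and 4.21 in KpCKO, and differed by −0.11 and 0.59 with an interval of −0.97 to 1.45. Irf4, the transcription factor downstream of STAT6, rose by 5.60 and 6.06 and had an interval of −3.04 to 3.97. Its differences in the cultures were 0.83 and 0.09, and the spread behind its interval includes that of the M1 arrays. A response weaker by 2-fold (−1 on the log2 scale) lay just outside the interval for Arg1 and Ccl17 and inside it for Irf4, and a response stronger by 2-fold lay inside all 3.

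Further members of the list were named after their values were seen. Mrc1, the mannose receptor CD206, rose by 3.47 in WT and 3.87 in KpCKO from a lower level in KpCKO Con (a gap of −1.32, adjusted p = 0.00486, limma), and the gap in M2 was −0.92 (adjusted p = 0.0221). Chil3, the chitinase-like protein Ym1, rose by 5.02 and 4.81. Differences alike in both cultures were found for the transcription factor genes Bhlhe40 (−0.86 and −0.88) and Batf3 (−0.72 and −0.67), and for the lectin genes Mgl2 (−0.86 and −0.76) and Clec10a (a mean of −0.97). Bhlhe40 was higher in KpCKO Con (1.48, adjusted p = 0.0149) and 0.61 higher in M2 (adjusted p = 0.225), while Mgl2 and Clec10a were lower in KpCKO in both conditions without passing the test.

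The STAT6 motif, TTC and GAA with 4 bases of any kind between them on either strand, was found in 3 of 27 promoter windows of the 31 genes with the lower response (11.1%), in Il18rap, Itgax and Drd4, and in 2 of 22 windows of the alternative activation list (9.09%), against 6.95% of all windows. The stretch of Itgax is given because that gene carries one of the results above, with the motif in capitals.
Itgax, chr7:128129378-128129477, plus strand: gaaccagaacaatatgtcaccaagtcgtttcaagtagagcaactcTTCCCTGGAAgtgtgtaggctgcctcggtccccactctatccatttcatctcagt

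The receptor chains and signalling genes of the IL-4 pathway differed little in response. Of 25 measured, 8 rose and 2 fell in WT by limma's test (10.3% and 9.47% of all genes did). In KpCKO 6 rose and 1 fell (7.02% and 5.52% of all genes did). Between the genotypes 0 differed in Con or in M2 (2.71% and 2.18% of all genes did). The median difference was −0.04 and −0.05, with 6 higher and 12 lower in both cultures (32.1% and 26.2% of all genes). Cish, a feedback inhibitor that STAT proteins induce, rose from −2.73 and −2.73 to 4.23 and 4.16 in WT and from −3.08 and −3.10 to 4.29 and 4.18 in KpCKO. Its measured response was not smaller in KpCKO in either culture, with differences of 0.42 and 0.39 and an unadjusted 95% confidence interval of 0.08 to 0.73. The difference did not pass the test (adjusted p = 0.99988, limma). Kdm6b, a histone demethylase, differed by −0.45 and −0.51, and Il13ra1, a chain of the receptor shared with IL-13, by 0.85 and 0.28.

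Nrf2 targets, most of which were higher in KpCKO, showed a small difference in response. Of 36 measured, 26 were higher in KpCKO Con and 24 in KpCKO M2 (1.62% and 1.43% of all genes were), and 0 were lower. With IL-4, 11 fell in WT and 7 in KpCKO by limma's test (9.47% and 5.52% of all genes did), and 0 rose. The median response was −0.44 in WT and −0.43 in KpCKO. The median difference was 0.07 and 0.03, with 18 higher and 14 lower in both cultures (32.1% and 26.2% of all genes). Gclc, a subunit of the enzyme that begins glutathione synthesis, had responses of 0.20 and 0.20 in WT and −0.41 and −0.43 in KpCKO (adjusted p = 0.548 and 0.23). Gsta3, a glutathione transferase, differed by 0.83 and 0.69 with an interval of −0.87 to 2.39, whose spread includes that of the M1 arrays.

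**Figure D5:**
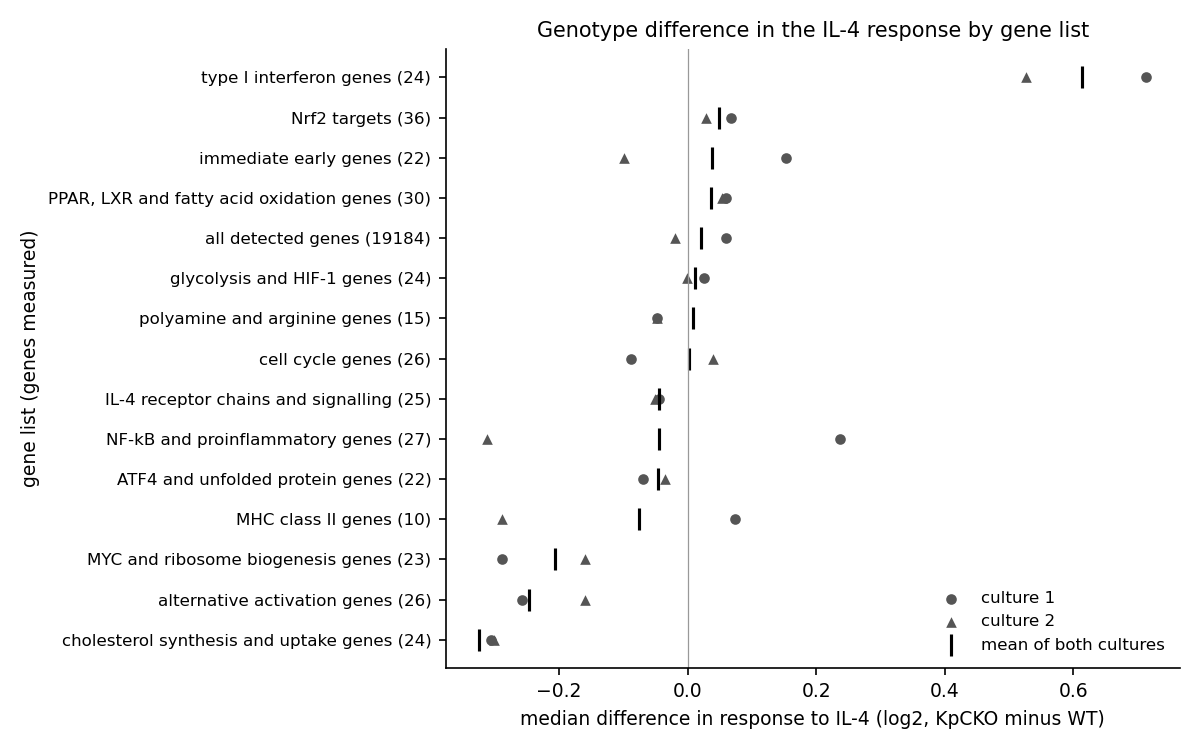
Median difference in the log2 response to IL-4 (KpCKO minus WT) of the pathway gene lists (cell type marker lists not drawn) and of all genes measured, with circles for culture 1, triangles for culture 2, a bar for the median of the mean over cultures and the number of genes measured in brackets. Of the lists drawn, the type I interferon genes lie highest at 0.61 and the cholesterol genes lowest at −0.32, while NF-κB genes lie at 0.24 and −0.31 in the 2 cultures.

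The remaining lists had medians of the mean difference between −0.08 and 0.04, and in none of them did a gene pass the test of the difference. NF-κB and proinflammatory genes went in opposite directions in the cultures, with medians of 0.24 and −0.31, as did MHC class II genes (0.07 and −0.29) and immediate early genes (0.15 and −0.10). Glycolysis and HIF-1 genes had a median of 0.01, genes of PPAR, LXR and fatty acid oxidation 0.04, ATF4 and unfolded protein genes −0.05, cell cycle genes 0.00, and polyamine and arginine genes 0.01, or −0.05 in each culture alone. Within them, Cdkn1a, the cell cycle inhibitor p21, rose in both genotypes (2.10 and 2.22 in WT, 1.32 and 1.48 in KpCKO, adjusted p = 0.000503 and 0.00353, limma) and differed by −0.79 and −0.74. Cd86, a costimulatory ligand, rose by 1.56 and 0.96 and differed by −0.45 and −0.75. It was 1.65 lower in KpCKO Con and 2.25 lower in KpCKO M2 (adjusted p = 0.00291 and 0.000862, limma). Pfkl, a phosphofructokinase, differed by −0.50 and −0.42.

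Markers of other cells were measured beside these lists. Of the neutrophil list 10 of 16 were kept, with a median difference of −0.04 and −0.45, of the eosinophil, mast cell and basophil list 7 of 12 (−0.44 and 0.02), of the dendritic cell list 4 of 9 (0.43 and −0.22), of the lymphocyte list 4 of 11 (−0.29 and −0.67) and of the fibroblast list 7 of 8 (−0.18 and −0.04). Epx, Il5ra, Ms4a2, Cd3d, Gzma and Ms4a1 were above background on none of the 8 arrays. Siglecf, which is also in the eosinophil list, was among the 31 genes, at −3.83 and −3.83 in WT Con, −2.62 and −2.60 in WT M2, −0.70 and −1.10 in KpCKO Con, and −0.76 and −1.03 in KpCKO M2. Fibroblast markers summed to between 37.5 and 44.4 times the 75th percentile in WT, to 58.2 and 48.0 in KpCKO culture 1, and to 30.0 and 24.1 in KpCKO culture 2. The part of other cells in the differences was not tested, and fewer cells of a type cannot be told apart from less RNA per cell.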

How the data were processed

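RNA of BMDMs was hybridised to 1-colour Agilent arrays. Per the file headers, the authors extracted the spots with Feature Extraction 10.7.3.1 and deposited background-subtracted intensities with flags, not scaled between arrays. They also deposited a table of log2 values, which on 40749 shared probes equal the log2 intensity less the array's 75th percentile, centred by probe (slopes between 0.999623 and 1.00036). It served as an alternative. No probe was saturated.

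Outlier spots (83 to 292 of 43379 per array) were left out, spots of a probe averaged, and log2 intensities set relative to the 75th percentile of the array. Names came from accessions in a RefSeq table for GRCm38.p6, and 26690 of 41174 probes matched. Probe positions of the array design were not used, and coordinates are given for RefSeq promoters only. The brightest probe of those well above background on all 8 arrays stood for a gene. The number of arrays limits the precision.

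limma 3.58.1 in R 4.3.3 fitted 12 arrays in 6 groups with culture as a block (5 residual and 2.23 prior degrees of freedom), with Benjamini-Hochberg adjustment over 19184 genes and a threshold of 0.05. The contrast was the KpCKO response less the WT response. Each culture held 1 mouse of each genotype by the series description, and deviations from the group means correlated at 0.410 to 0.705 between groups of the same culture in 6 pairs of groups. With culture as a block, a shift shared by all groups is taken out. P-values measure the spread that remains between the 2 cultures, pooled over the 6 groups, M1 included. An exact test of 2 against 2 cannot go below 0.333, two-sided, so none was made. The fit was tested on simulated data, where limma missed most planted differences of 2-fold. There the size rule also passed genes in which no difference had been planted, more than it passed in the real data. The simulated spread was that of the fit, M1 arrays included.

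The members, the 20 gene lists and the tests were chosen with earlier results of these data known. The genes named are, of those beyond 2-fold in both cultures, the 12 in each direction with the largest smaller difference, Keap1, Nqo1, Arg1 and Ccl17, and of each list the largest rise, fall and WT response, where the text describes them. Others are marked. Promoters were searched with Python 3.11.15. Values of some list members are not reported here.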

Additional observations from a re-analysis of the deposited data

Results flagged for a closer look

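Gclc had a response above 0 in both WT cultures and below 0 in both KpCKO cultures, a mean difference of −0.61, and limma's test of that difference was not passed (unadjusted p = 0.0713). The median of the 4 lymphocyte markers that were measured also lay above 0 in both WT cultures (0.17 and 0.13) and below 0 in both KpCKO cultures (−0.17 and −0.50). The median of their mean differences was −0.48, and the difference of the list was not tested.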

How the results depend on the processing

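The ratio of slopes stayed below 1 under each alternative, between 0.766 and 0.859 in culture 1 and between 0.859 and 0.923 in culture 2. Leaving out the replicate block gave 0 calls for the difference in response, as did each array left out. A dim-probe filter that asked for both arrays of at least 1 group gave 2 calls with a higher response (Clvs2 and Olfr20), and no filter gave 1 (Clvs2). Neither gene was well above background on all 8 arrays. Genes with the higher response numbered 1 with normexp, 82 and 289 with those filters, 101 at 1.5-fold, 0 at 4-fold, 65 on the mean over cultures, and 90 to 192 in a single culture. Genes with the lower response numbered 106 and 321 with those filters, 108 at 1.5-fold, 2 at 4-fold, 78 on the mean, and 139 to 142 in a single culture.

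Calls for IL-4 in WT numbered 2260 with normexp, 2363 without a filter, 1651 without the replicate block, and 984 to 3343 with an array left out (fewest without WT Con replicate 1). In KpCKO they numbered 1044, 1230 and 879, 3648 with only the 8 arrays fitted, and 566 to 1712 (fewest without KpCKO Con replicate 2). Between genotypes in Con they numbered 252, 258, 194, 805 and 105 to 375 (fewest without WT Con replicate 1), and in M2 269, 236, 166 and 108 to 321 (fewest without WT M2 replicate 1). A left-out array leaves a group of 1, which is assumed to vary like the others. The cause of these shifts was not tested.

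The median of the alternative activation genes was −0.35 with the filter on any group or on all 12 arrays, −0.32 without a filter, and −0.26 to −0.16 in a single culture. That of the cholesterol genes was −0.34 with quantile normalization, −0.27 with normexp, −0.33 with the authors' values or the mean of probes, and −0.31 to −0.30 in a single culture. That of the interferon genes was 0.53 to 0.71 throughout.

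Of 60 genes, 8 changed sign. With normexp the difference was −0.11 for AK037784, −0.21 for Arg1, −0.14 for Kcnj9 and −0.061 for Nqo1. With 1 array left out, it ranged from −0.34 to 0.53 for Arg1, from −0.36 to 0.84 for Ccl17, from −0.48 to 0.067 for Chil3, from −0.70 to 1.62 for Irf4 and from −0.32 to 0.20 for Myc.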
